A study of Homo sapiens with 18 samples.

Results

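PDLIM5 (gene 10611) spans 216.6 kb of the plus strand of chromosome 4, at chr4:95372738-95589377 in hg19. Every listed QKI cluster that overlapped this span on the plus strand was taken from 12 peak lists, 9 of single libraries and 3 merged over the libraries of a day. This gave 492 of the 889743 listed lines. Of these, 471 came from single libraries and 21 from the merged lists. The gene was chosen by its QKI peaks being most numerous at day 8 in these same lists, so its levels at day 8 against the earlier days are described here without a test.

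All 3 groups were cells of HUES6, an established human embryonic stem cell line. Day 0 cells were pluripotent cells kept overnight in growth medium. Day 4 cells were cardiac progenitors made with 1.5 uM CHIR, an activator of Wnt signalling, 1.5 ng/mL BMP4 and then 100 nM C59, an inhibitor of Wnt secretion. Day 8 cells had gone through the same steps and were taken as cardiomyocytes once beating was seen. Each day had 3 QKI immunoprecipitation (IP) libraries made by eCLIP, in which ultraviolet light (400 mJ/cm2) links proteins to RNA in living cells, and RNA that comes down with the protein is sequenced beside an input of the same size range. All groups were of 1 line without genetic change, and nothing in the labels told whether same-day libraries were grown as separate cultures. The spread among them may therefore be technical.

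QKI (Quaking) belongs to the STAR family of RNA-binding proteins. It recognises RNA sequences built on ACUAA, many of them intronic or in the 3′ untranslated region, and is known for its part in splicing and RNA stability in muscle, heart and glia. PDLIM5, also called Enigma homolog (ENH), carries a PDZ domain that binds alpha-actinin at the Z-disc of muscle and LIM domains that bind protein kinase C. Its transcript is alternatively spliced, and short forms without the LIM domains are typical of differentiated heart and skeletal muscle. RefSeq lists 10 transcripts of the gene, 9 of them coding. Exon positions and the bases of the bound regions in hg19 were not used here, so the regions are placed by their distance from the start of the gene and are not assigned to exons or introns.

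Across the series, the libraries held 52462 to 187962 clusters and 3030 to 15508 passing peaks. By the authors' values, a peak passed if its fold over input was 4 or more and its p no higher than 0.001. Day 0 lists were the longest, and day 4 replicate 1 had the fewest passing peaks. Read depth was unknown, since the files held peaks and no reads. Marker genes of the stages were not checked, since no annotation of hg19 was used to place them. The lists also hold no expression values.

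PDLIM5 held few QKI peaks at day 0 and day 4 and many at day 8. The day 0 libraries had 7, 8 and 8 passing peaks in the gene, the day 4 libraries 1, 6 and 3, and the day 8 libraries 33, 23 and 44. Every day 8 library lay above every library of the other days, and the 6 earlier libraries stayed at or below 8 peaks. On average there were 7.67 ± 0.577 peaks at day 0 (SD, n = 3), 3.33 ± 2.52 at day 4 and 33.3 ± 10.5 at day 8. The numbers of peaks depend on the length of each list, so they were also expressed as shares. At day 0 PDLIM5 held 0.0565% ± 0.00984 of a library's passing peaks, at day 4 it held 0.0617% ± 0.0249, and the day 8 share was 0.514% ± 0.108. The day 8 mean share was 9.10 times that of day 0 and 8.32 times that of day 4.

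The day 8 shares did not overlap those of day 0 or day 4. For scale, the genome was tiled on each strand into windows of the length of PDLIM5, and the 2275 windows with at least 10 passing peaks over the 9 libraries were kept. In 18.1% of them every day 8 library was above every day 0 library, and in 28.8% the reverse held. Against day 4 these percentages were 11.1% and 8.04%. By mean share PDLIM5 ranked 320 among the 2275 windows at day 0 and 314 at day 4, whereas its day 8 rank was 7. These ranks come from the pattern the gene was chosen for.

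**Figure D1:**
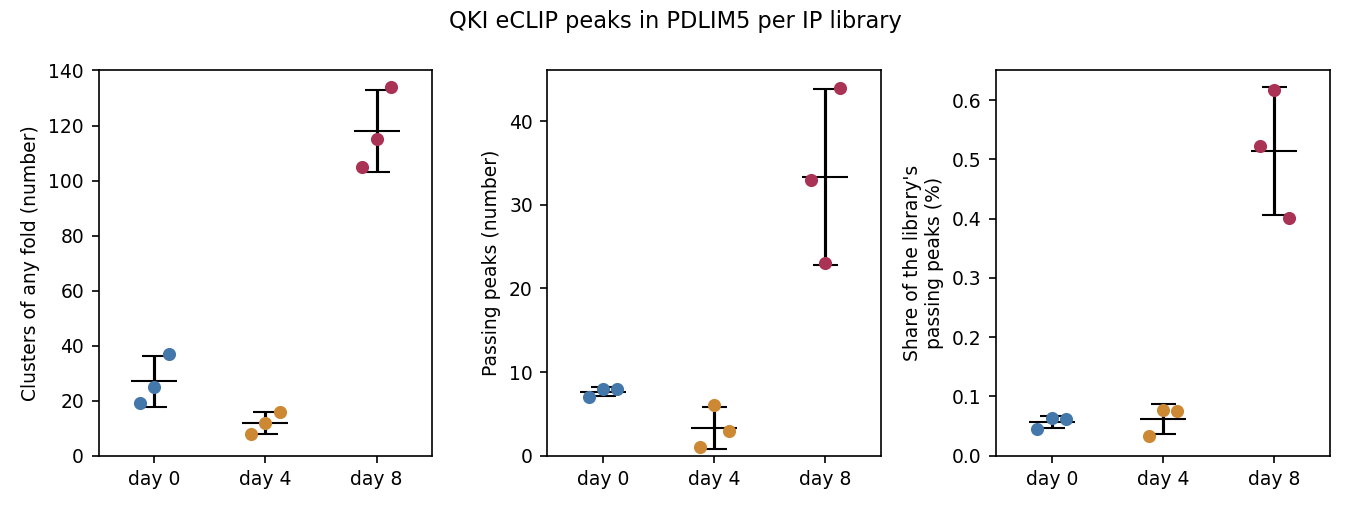
Clusters of any fold, passing peaks and the share of the library's passing peaks in PDLIM5 (y axes) by day (x axis). Each point is 1 IP library, and the lines give the mean and SD of 3 libraries. The 3 day 8 libraries lie above all 6 others in each panel, with 105 to 134 clusters against 8 to 37.

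Weak clusters, like strong ones, were most numerous at day 8. All clusters listed in PDLIM5, whatever their fold, numbered 19, 25 and 37 in the day 0 libraries, 8, 12 and 16 at day 4, and 105, 115 and 134 at day 8. Every one of them had a signal above its input. Clusters at or below input may therefore be missing from the lists, also where no cluster of any fold is reported below. Clusters below 4-fold, whose signal is closest to that of the input, numbered 3, 4 and 8 at day 0, 3, 0 and 8 at day 4, and 59, 61 and 53 at day 8. Clusters that reached 4-fold but missed the p-value numbered 9, 13 and 21 at day 0, 4, 6 and 5 at day 4, and 13, 31 and 37 at day 8. Of these 3 kinds, this last one was the only kind whose numbers overlapped between day 0 and day 8. Of the clusters in the gene, 30.2% ± 7.78 passed at day 0, 27.1% ± 20.1 at day 4 and 28.1% ± 7.04 at day 8. Over the whole lists that percentage was 9.73% ± 4.73, 6.64% ± 3.89 and 11.9% ± 5.68. Clusters can be called only where the transcript is present, and no RNA level was measured in these files. More PDLIM5 RNA, more cells that express it and more QKI binding per transcript cannot be told apart here.

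**Figure D2:**
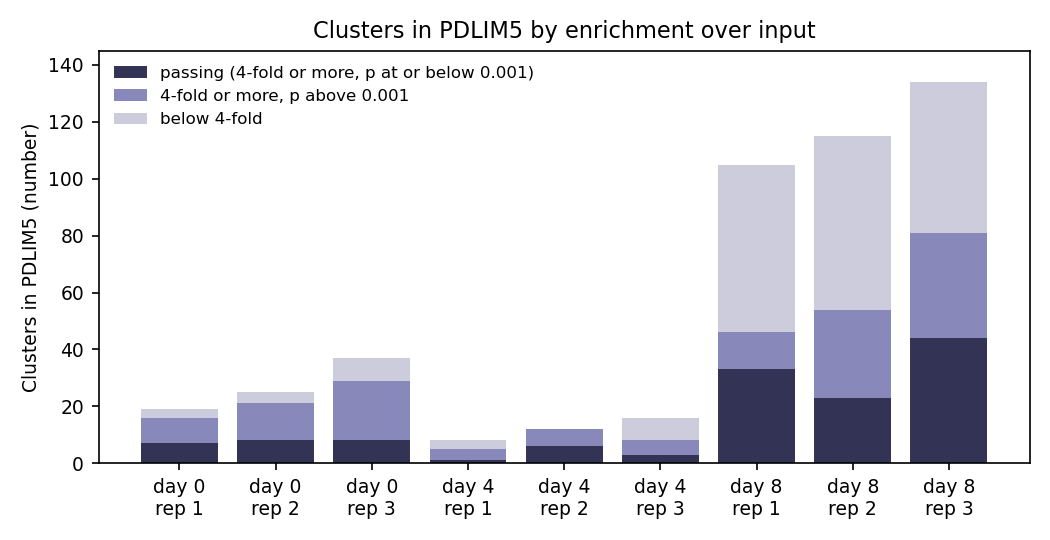
Number of clusters in PDLIM5 (y axis) in each IP library (x axis), stacked by the authors' enrichment over input. Clusters below 4-fold number 0 to 8 in the 6 earlier libraries and 53 to 61 at day 8, and passing peaks 1 to 8 and 23 to 44.

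Clusters ran along nearly the whole gene and stopped at its ends. The first began 368 nt after the start of the gene and the last ended 61 nt before its end. No library had a plus-strand cluster within 100 kb on either side, and none had a minus-strand cluster within the gene. When the gene was divided into 22 bins of 10 kb, clusters of any fold lay in 22 bins at day 8, 17 at day 0 and 15 at day 4, counting a bin where at least 1 library had one. All 3 libraries of a day had a cluster in 20 bins at day 8, 6 at day 0 and 4 at day 4. Passing peaks were more restricted. They lay in 14 bins at day 8 and in 5 bins at each of the earlier days, and in all 3 libraries in 7 bins at day 8, 3 at day 0 and 1 at day 4.

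**Figure D3:**
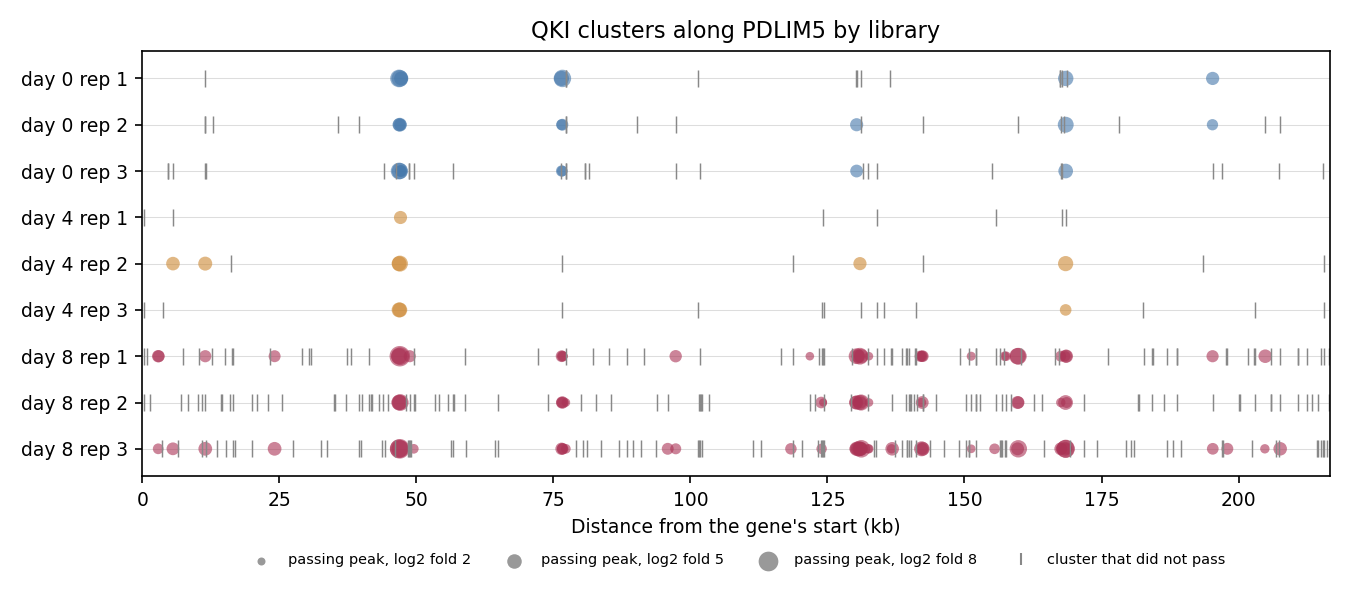
Position of each cluster (x axis, kb from the start of PDLIM5) in each IP library (rows). Circles are passing peaks, larger for a higher log2 fold over input, and grey ticks are clusters that did not pass. Day 0 peaks sit at 46.8, 76.4, 130.2, 168.4 and 195.2 kb and just beyond, and day 8 passing peaks lie in 14 of the 22 bins of 10 kb, while day 8 clusters of any fold lie in all 22.

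Passing peaks of the 9 libraries that overlapped or touched were joined into regions. PDLIM5 had 49 such regions, with a median width of 77 nt (9 to 200 nt), and together they covered 4144 nt or 1.91% of the gene. They came in groups: 16 of the 48 gaps between neighbours were under 100 nt, and 6 were over 10 kb. Joined within 1 kb, the regions formed 25 stretches, of which 25 held a passing peak at day 8, 5 at day 4 and 5 at day 0.

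Most of the regions passed at day 8 and at no other day. Of the 49 regions, 38 passed in day 8 libraries alone, a pattern of 20.4% of all 29356 regions of the series. A single region passed at day 0 alone (40.3% of all regions), and no region at day 4 alone (10.5%). Of the 38, 21 passed in 1 day 8 library, 9 in 2 and 8 in 3. At 24 of the 38 no cluster above input was listed in any earlier library, and 12 had a cluster that did not pass in at least 1 day 0 library. At least 1 library passed in 48 of the 49 regions at day 8 (43.5% of all regions), 8 at day 0 (65.3%) and 6 at day 4 (32.5%). All 3 libraries passed in 15 regions at day 8 (6.24%), whereas 5 did so at day 0 (20.3%) and 1 at day 4 (3.4%). Of the 8 regions with a day 0 peak 7 also had one at day 8, as had all 6 with a day 4 peak. Over the series, 11841 of the 19161 regions with a day 0 peak passed at no other day. The same held for 3082 of the 9550 regions with a day 4 peak.

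The strongest PDLIM5 peaks lay 46.8 to 46.9 kb into the gene and passed at every day. The region at 46.9 kb (chr4:95419687-95419886, plus strand) passed in 9 of 9 libraries, as did 1.85% of the regions of the series. Its highest authors' log2 fold over input was 6.23, 4.66 and 5.93 in day 0 replicates 1 to 3, 4.29, 5.81 and 5.14 at day 4, and 8.48, 6.25 and 7.93 at day 8. Folds are the authors' values for single peaks, each scored against its own input, and they are not compared between libraries. The neighbouring region at 46.8 kb (chr4:95419502-95419660), separated by 26 nt, passed in 8 libraries. Its log2 folds were 6.75, 4.29 and 6.21 at day 0, 5.18 and 5.25 in day 4 replicates 2 and 3, and 5.83, 5.51 and 7.19 at day 8. Day 4 replicate 1, the library with the fewest passing peaks, had no cluster there. Within 8 of the 9 libraries the highest PDLIM5 fold belonged to one of these neighbours, and the exception was day 0 replicate 2. Ranked within its own list, the strongest PDLIM5 peak lay in the top 0.190%, 5.23% and 0.602% of passing peaks in day 8 replicates 1 to 3. It lay in the top 7.27%, 10.7% and 6.28% at day 0, and 35.5%, 9.88% and 11.9% at day 4. The lists differ in length, so these ranks are not compared between libraries.

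A region at 168.4 kb (chr4:95541116-95541263) also passed at all 3 days. Its log2 folds were 5.45, 5.75 and 5.07 at day 0 and 4.21, 5.14 and 7.07 at day 8. At day 4 it passed in replicates 2 and 3, with 5.37 and 3.56, and replicate 1 had a cluster of 3.02 that missed the p-value. It was the strongest PDLIM5 position in day 0 replicate 2. These 3 regions held all passing peaks of day 4 replicates 1 and 3 and 3 of the 6 of replicate 2.

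Other regions passed at day 0 and day 8 but not at day 4. Neighbouring regions at 76.4 kb (chr4:95449168-95449289) and 76.6 kb (chr4:95449326-95449456) passed in every day 0 and day 8 library and in no day 4 library. These were the 2 regions of the gene that passed in 3 of 3 day 0 and 0 of 3 day 4 libraries, against 9.11% of all regions. At 76.4 kb the log2 folds were 5.28, 3.29 and 3.44 at day 0 and 3.61, 3.19 and 3.91 at day 8, with no cluster at day 4. At 76.6 kb they were 6.64, 3.66 and 3.12 at day 0 and 3.20, 3.98 and 3.52 at day 8. Day 4 replicates 2 and 3 had clusters at 76.6 kb of 3.31 and 2.76 that missed the p-value, so clusters were listed there without passing. A region at 130.2 kb (chr4:95502985-95503163) passed in day 0 replicates 2 and 3 (4.29 and 4.12) and in every day 8 library (5.68, 4.65 and 4.87). Day 0 replicate 1 had a cluster of 3.32 with a −log10 p of 2.95, just under the limit, and no day 4 library had any. The gene had no region that passed in 3 of 3 day 4 and 0 of 3 day 0 libraries (0.262% of all regions).

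The clearest day 8 positions lay in the 3′ part of the gene. In PDLIM5, 9 of the 49 regions passed in 3 of 3 day 8 libraries and in 0 of 3 day 0 libraries, against 1.68% of all regions, and 11 passed in 3 of 3 day 8 and 0 of 3 day 4 libraries, against 1.78%. No region of the gene went the other way against day 0 (9.45% of all regions) or day 4 (0.194%). Since the gene was chosen for this contrast, these counts describe it and support nothing. The 9 regions lay within 37.8 kb, from chr4:95503633 to 95541382, which is 17.4% of the length of the gene. At 6 of them no day 0 library had a listed cluster of any fold, and at 4 no day 0 or day 4 library had one. The count was 17 in place of 9 without day 8 replicate 2, the day 8 library with the fewest passing peaks.

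The first group of these began 130.9 kb into the gene. The region at 130.9 kb (chr4:95503633-95503717) had log2 folds of 6.23, 5.31 and 4.97 in the day 8 libraries and passed in day 4 replicate 2 with 4.31 and a −log10 p of 3.05. Day 0 libraries had no cluster there. At 131.1 kb (chr4:95503844-95503944) the day 8 folds were 4.86, 5.84 and 6.69, and the only earlier cluster, in day 4 replicate 3, had 3.02 and did not pass. Together with the region at 130.2 kb they belong to a stretch of 1104 nt with 7 regions. That stretch held 4, 6 and 7 passing peaks in the day 8 libraries, 0, 1 and 1 at day 0, and 0, 1 and 0 at day 4.

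Further along, neighbouring regions at 159.7 kb (chr4:95532394-95532466) and 159.8 kb (chr4:95532527-95532607) passed in every day 8 library and in no other. At 159.7 kb the log2 folds were 6.08, 4.22 and 4.14, and at 159.8 kb they were 6.23, 3.88 and 6.59. A single earlier cluster, of 2.29 in day 0 replicate 2 at 159.7 kb, did not pass. The region at 142.1 kb (chr4:95514876-95514940) had day 8 folds of 3.16, 2.55 and 5.24 and no earlier cluster. The region at 168.6 kb (chr4:95541298-95541382), 34 nt from the one at 168.4 kb that passed at all 3 days, had day 8 folds of 4.30, 3.23 and 3.34 and a day 0 cluster of 2.91 that did not pass. Here a position that passed at day 8 alone and one that passed at all 3 days lay side by side. The other 3 of the 9, at 132.5, 142.3 and 167.5 kb, had day 8 log2 folds from 2.23 to 4.14, and the one at 167.5 kb had clusters that did not pass in all 3 day 0 libraries.

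**Figure D4:**
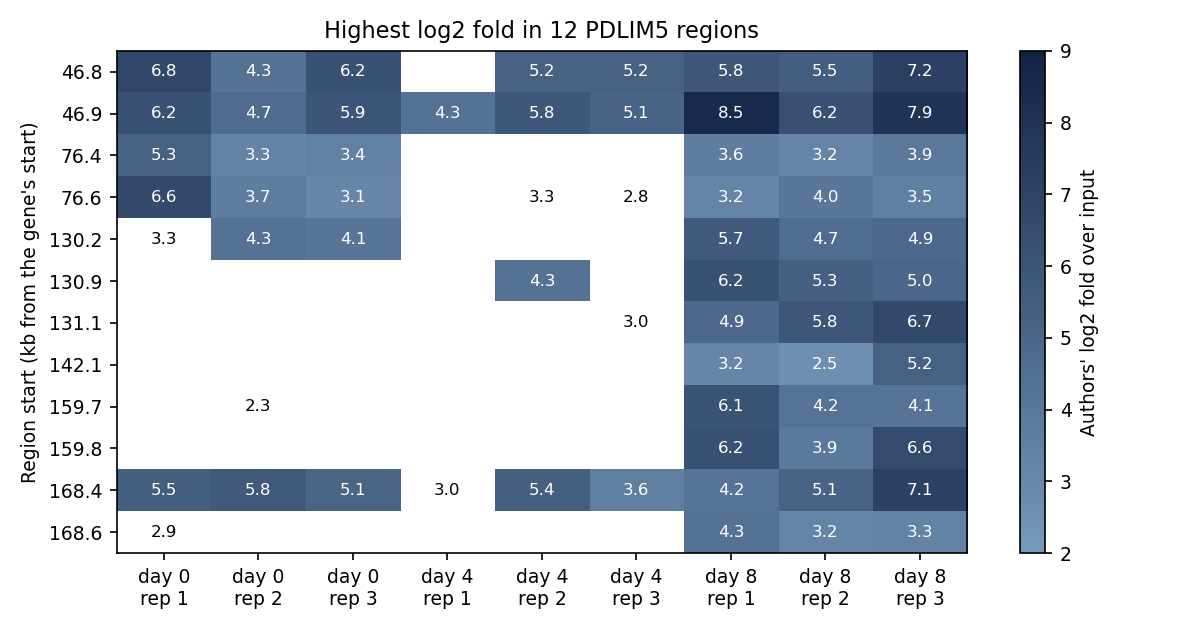
Highest authors' log2 fold over input in 12 PDLIM5 regions (rows, start in kb from the start of the gene) in each IP library (columns). Shaded cells passed, unshaded numbers are clusters that did not pass, and empty cells had no cluster. The rows at 46.8, 46.9 and 168.4 kb are filled at all 3 days, and those at 130.9 to 159.8 kb almost only at day 8.

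The other 37 regions were weaker or less regular. Their highest log2 folds ran from 2.03 to 5.27, 21 of them passed in 1 library (52.3% of all regions of the series) and 11 in 2. Those that passed in 1 library were split into 12 in day 8 replicate 3, 6 in replicate 1 and 3 in replicate 2, the order of the numbers of passing peaks of these libraries (10966, 6320 and 3726). A region at 195.2 kb (chr4:95567917-95568073), picked after its values were seen, passed in day 0 replicates 1 and 2 and day 8 replicates 1 and 3 and was listed as a cluster that did not pass in the remaining library of both days. The 1 region that passed at day 0 alone, also picked so, at 47.2 kb (chr4:95419920-95419974, day 0 replicates 1 and 3), was 33 nt from the 46.9-kb region. Near the threshold, the lowest fold that passed at day 8 was 4.08-fold in replicate 2, and the highest that reached the p-value but not 4-fold was 2.93-fold in replicate 3. These clusters overlap, so the same position lay on either side of the limit in different libraries.

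The authors' merged lists of reproducible peaks also held the most PDLIM5 peaks at day 8. The day 8 list had 16 PDLIM5 peaks among 1576, or 1.02%. The day 0 list had 5 among 7778, or 0.0643%, and the day 4 list had 0 among 947. Each list combines 3 libraries, so these numbers carry no replicate error. The 5 day 0 peaks lay in the regions at 46.8, 46.9, 76.4, 76.6 and 168.4 kb. The 16 day 8 peaks, which form 11 footprints, lay in these 5 regions and in those at 130.2, 130.9, 131.1, 142.1, 159.7 and 159.8 kb. Their authors' log2 folds ran from 3.39 to 7.28 at day 8 and from 4.27 to 5.75 at day 0.

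The segment of 37.8 kb that holds the 9 regions was drawn after its values were seen, so its numbers are a description. Inside it, each day 0 library had 1 passing peak, the day 4 libraries 0, 2 and 1, and the day 8 libraries 16, 11 and 21. The day 0 peak was in each case in the region at 168.4 kb. Outside it, the day 0 libraries had 6, 7 and 7 passing peaks, the day 4 libraries 1, 4 and 2, and the day 8 libraries 17, 12 and 23. As shares of a library's passing peaks, the outside part held 0.0491% ± 0.00908 at day 0 (SD, n = 3), 0.0448% ± 0.0103 at day 4 and 0.267% ± 0.0562 at day 8, again without overlap between day 8 and the other days. Outside the segment the day 8 mean share was 5.43 times that of day 0, so passing peaks were more numerous at day 8 in that remainder of the gene too.

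The contrast between day 4 and day 0 was not the one the gene was chosen by, and it was tested. The values of both days still entered the choice, as the levels that day 8 was set against. The test is therefore not independent of that choice. The share of passing peaks in PDLIM5 was compared with limma over the 2275 windows, on log2 of the share with a pseudocount of 0.5 peaks. All 9 libraries were in the fit and in the window filter, so day 8 values also entered the estimate of the spread. The day 4 value exceeded the day 0 value by 0.26 ± 0.38 (log2, SE, 95% interval -0.52 to 1.04, limma adjusted p = 0.658), while the median window moved by 0.21. Both values depend on the pseudocount. Without it, the mean share of PDLIM5 at day 4 was 1.09 times that at day 0. Among windows of at least 30 peaks the median window moved by 0.072. The PDLIM5 difference did not pass the test, and the interval allows changes from a fall of 0.52 to a rise of 1.04 on the log2 scale. By the same limma test, day 4 was higher than day 0 in 12.2% of the windows and lower in 7.21%, or 278 and 164 windows. The window filter counts day 8 peaks too, so it admits windows with few or no peaks at day 0 and day 4. Their log2 shares are set mainly by the pseudocount and the length of each list. The lists averaged 13757 passing peaks at day 0 and 4935 at day 4, and a shorter list raises such a value. These counts are therefore not read as changes in binding. That excess of higher windows turned with equal numbers of peaks per library (82 higher and 133 lower) and with all clusters (317 and 396). It also turned among the 560 windows of at least 30 peaks (73 and 79). Leaving out a single library lowered both counts in 4 of 6 cases, to 166 and 86 without day 0 replicate 1, 177 and 75 without day 0 replicate 2, 191 and 94 without day 0 replicate 3 and 170 and 105 without day 4 replicate 3. The shares of the libraries overlapped in PDLIM5, as they did not in the 14.2% of windows with every day 4 library above every day 0 library or the 24.4% with the reverse. An exact permutation test of the shares, 3 libraries against 3, gave a two-sided p = 0.7, where 0.1 is the smallest possible. The day 4 shares, 0.0330%, 0.0772% and 0.0750%, lay on both sides of the day 0 shares of 0.0451%, 0.0630% and 0.0612%. With covered nucleotides or all clusters in place of passing peaks the sign turned, to -0.052 and -0.15, and did not pass either.

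In width and fold, PDLIM5 peaks are given beside the whole lists. The median passing peak in the gene was 88.0 ± 13.6 nt wide at day 0, 70.0 ± 22.3 at day 4 and 65.7 ± 6.43 at day 8, beside means of 68.3, 65.7 and 65.0 nt in the whole lists. Median log2 folds were 4.48 ± 0.84, 4.79 ± 0.45 and 3.89 ± 0.11 in the gene, and 4.16 ± 0.15, 3.92 ± 0.40 and 4.13 ± 0.19 in the lists. The day 4 medians in the gene, of width and of fold, rest on only 1, 6 and 3 peaks in replicates 1 to 3. At day 8 the median in the gene was lower than that of the list in each of the 3 libraries, while the highest folds there were 8.48, 6.25 and 7.93. The day 8 libraries thus combined a few very strong PDLIM5 peaks with many of a fold no higher than usual in their lists.

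Some windows elsewhere in the genome had a profile over the 9 libraries much like that of PDLIM5. Likeness was the Pearson correlation of the log2 shares over the 9 libraries, a description without a test, and all windows of a library share its depth and list length. The closest 3 windows lay on chromosome 14 (plus strand, peaks from 55061463 to 55197474, r = 0.965), chromosome 10 (minus strand, 68678460 to 68882161, r = 0.964) and chromosome 2 (minus strand, 40514340 to 40726570, r = 0.959). The median over all windows was -0.106, and 1% were above 0.925. The chromosome 14 window held 2, 2 and 1 passing peaks in the day 0 libraries, 0, 1 and 0 at day 4 and 9, 10 and 12 at day 8. With counts this low, its log2 shares at day 0 and day 4 depend strongly on the pseudocount and the length of each list. The chromosome 10 window held 6, 4 and 8 at day 0, 1, 4 and 2 at day 4 and 14, 10 and 34 at day 8, and so was bound at all 3 days like PDLIM5. The chromosome 2 window differed in that it had no passing peak at day 0 or day 4, and 27, 24 and 43 at day 8. Its log2 shares at day 0 and day 4 were thus set by the pseudocount of 0.5 peaks and the length of each list. Its likeness there says nothing about binding.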

How the data were processed

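QKI eCLIP peak lists of 9 IP libraries, 3 per day, were analysed. The 9 input libraries entered only through the authors' scores. Tools listed by the submitters' processing notes are cutadapt, STAR and SAMtools (versions not given in the sources used here), with the build hg19. The peak caller was not given in the sources used here. Per the file headers, peaks were input-normalized. Each deposited line holds the authors' enrichment over input as log2, a −log10 p-value capped at 400, and a score of 200 or 1000, which was not used. The merged lists are described as 4-fold with a 3-way IDR (irreproducible discovery rate) comparison, per the file headers, and as merged over 3 libraries, per the deposited names.

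Members were all plus-strand lines that overlapped the span of PDLIM5. Passing meant a fold of 4 or more with p no higher than 0.001. Regions were passing peaks of any library that overlapped or touched. The text names the regions that passed in 3 of 3 libraries of a day, at most 12, ordered by the number of passing libraries and then by the fold. Windows with at least 10 passing peaks were fitted with limma 3.58.1 (lmFit, eBayes with a variance trend) on log2 of (peaks + 0.5) over (passing peaks + 1) times 10000, and adjusted by Benjamini-Hochberg at 0.05. The script was tested on simulated data. Depth was unknown, so no counting interval was given. Positions of other genes of the family and of marker genes were not used here, since no annotation of hg19 was used. The gene, the regions and the windows were chosen with earlier results of these data known. Alternatives were 8-fold, equal numbers of peaks, other units, a pseudocount of 2, other window filters, a replicate block and leaving out each library.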

Additional observations from a re-analysis of the deposited data

How the results depend on the processing

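The day 4 against day 0 difference did not pass at 0.05 under any alternative, with limma adjusted p from 0.141 to 0.984. It was -0.052 by covered nucleotides, -0.15 by all clusters and 0.62 with a pseudocount of 2 peaks, against 0.26 in the reported fit. With that pseudocount the median window moved by 0.81, against 0.21 in the reported fit, so both values depend on the pseudocount. The PDLIM5 difference was 0.11 to 0.52 when single day 0 or day 4 libraries were left out. With the replicate number as a block it was 0.26 with an adjusted p of 0.681, and 268 windows were higher and 155 lower, against 278 and 164. Deviations of same-numbered libraries correlated at -0.16 to 0.294, and those of differently numbered libraries at -0.428 to 0.413. The best match had the own number in 3 of 9 libraries. Correlations this weak cannot tell whether the numbers pair the libraries, and the pairing stays unknown. The count of windows called at day 4 against day 0 moved by over 1.5 times in at least 1 direction under several alternatives. These were 8-fold (293 and 102), equal numbers of peaks (82 higher and 133 lower), all clusters (317 and 396) and a pseudocount of 2 (867 and 42). The count also moved so without day 0 replicate 1 (166 and 86), day 0 replicate 2 (177 and 75), day 0 replicate 3 (191 and 94) or day 4 replicate 3 (170 and 105). With no window filter 1950 and 216 of 6797 windows were called, and with a filter of 30 peaks 73 and 79 of 560. Since the reported fit tested 2275 windows, these counts are not set directly against its 278 and 164.

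The mean share of PDLIM5 was highest at day 8 under each alternative, while the order of day 0 and day 4 turned with some: day 4, above day 0 in the reported shares, was below it by covered nucleotides (0.0636% against 0.0707%), by all clusters, without day 4 replicate 2 (0.0540%) or replicate 3 (0.0551%), and without day 0 replicate 1 (day 0 at 0.0621%). At day 0 the share was 0.0664% at 8-fold, 0.0770% with equal numbers of peaks, 0.0707% by covered nucleotides and 0.0174% by all clusters. At day 4 it was 0.0880% with equal numbers and 0.0153% by all clusters, and at day 8 0.200% by all clusters. Without single libraries it was 0.0532% to 0.0621% at day 0, 0.0540% to 0.0761% at day 4 and 0.462% to 0.570% at day 8. The 9 regions passing in 3 of 3 day 8 and 0 of 3 day 0 libraries numbered 6 at 8-fold, 6 with no cluster of any fold allowed at day 0, 7 with peaks joined within 50 nt, and 9 to 17 without single libraries. Unknown read depth limits every statement on absent peaks, above all in day 4 replicate 1.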
